A study of Homo sapiens with 2 samples.

Results

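The 3 genes of 1 ligand and its receptors were followed in all 6 count matrices of the series, chosen by name out of 373 gene symbols that the matrices of a breast cancer panel list: PDGFB, the ligand, and PDGFRA and PDGFRB, its receptors. SUM159 is a triple-negative breast cancer (TNBC) cell line, labelled wild type (Wt), whose transcripts were counted cell by cell with a targeted panel on the BD Rhapsody platform, which barcodes each captured cell and each molecule (unique molecular identifier, UMI). There were 2 samples, monolayer (attached, 2D) cells and 3D spheroids, each pooled from 3 tagged populations and run on its own cartridge, with no replicates. The attached populations were untreated cells, here called treatment-naïve, and cells made resistant to paclitaxel (a microtubule-stabilising taxane) or doxorubicin (a DNA-damaging anthracycline) by long exposure to rising doses. The spheroid populations carried the same names, although the labels call the drug spheroids treated and the series design calls them resistant. Each matrix was assigned to its population from its name, since the labels do not say which matrix holds which tag. Culture form and cartridge cannot be told apart, and each resistant line is 1 population.

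Platelet-derived growth factors are secreted dimers that bind a pair of receptor tyrosine kinases at the cell surface. PDGFB, the B chain, forms a homodimer that binds and activates both PDGFRA (receptor alpha) and PDGFRB (receptor beta), whereas the A chain, encoded by PDGFA, acts mainly through the alpha receptor. In normal tissue the receptors are typical of fibroblasts, pericytes and other mesenchymal cells, PDGFB is made by endothelial cells and platelets among others, and the activated receptors signal through RAS, PI3K, SRC and STAT proteins. A tumour cell that makes both ligand and receptor could in principle respond to its own ligand, which is why the same-cell question is asked here of transcripts.

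In the RefSeq annotation of GRCh38.p14 PDGFB lies on chromosome 22 from 39223359 to 39244982, PDGFRA on chromosome 4 from 54229293 to 54298245 and PDGFRB on chromosome 5 from 150113839 to 150155845. RefSeq promoter windows, from 250 bases before to 50 bases after a start, were listed for both receptors. They are shown because both receptor transcripts were lower in doxorubicin-resistant than in paclitaxel-resistant cells in both cultures, described below. The motif searched was CCAAT on both strands, printed in capitals, with the other bases in lower case, 5′ to 3′ on the strand of the gene.
PDGFRA, chr4:54233710-54234009, plus strand: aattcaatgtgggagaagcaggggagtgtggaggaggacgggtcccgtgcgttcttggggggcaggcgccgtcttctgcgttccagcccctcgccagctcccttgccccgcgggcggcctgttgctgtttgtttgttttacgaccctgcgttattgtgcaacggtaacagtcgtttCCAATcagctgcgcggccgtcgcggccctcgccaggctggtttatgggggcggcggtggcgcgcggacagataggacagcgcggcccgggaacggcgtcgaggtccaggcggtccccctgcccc
PDGFRB, chr5:150155796-150156095, minus strand: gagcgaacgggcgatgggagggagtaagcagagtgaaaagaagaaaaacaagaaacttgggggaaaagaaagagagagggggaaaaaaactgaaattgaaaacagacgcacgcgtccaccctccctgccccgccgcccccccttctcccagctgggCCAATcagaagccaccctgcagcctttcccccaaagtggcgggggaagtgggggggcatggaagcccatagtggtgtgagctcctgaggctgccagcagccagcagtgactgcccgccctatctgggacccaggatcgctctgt
Each of these windows held CCAAT once, at base 177 of the PDGFRA window and base 157 of the PDGFRB window, and a second PDGFRA window, chr4:54229043-54229342, held none. The same motif was found in 34.6% of 35116 promoter windows of this length, so its presence in both receptor windows is a description of the letters only. The GC content was 66.7% for the PDGFRA window with the motif, 47% for the other and 59.3% for PDGFRB, against a median of 58.7% over all windows.

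The files held 18233 attached and 11889 spheroid barcodes, and the attached number was above the 15000 cells that the labels say were pooled. Attached populations had 5305 to 7032 cells, 21423102 to 29451390 UMIs and a median of 3653 to 3814 UMIs per cell, whereas spheroid populations had 3751 to 4362 cells, 8452574 to 11307759 UMIs and medians of 1538.5 to 2340. No barcode was shared between the populations of a cartridge. SUM159 cells are known to span epithelial-like to mesenchymal states. The 12 mesenchymal genes summed to 90400 to 218849 CPM, which are UMIs scaled to a population total of 1000000. The 7 basal epithelial genes summed to 6671 to 27293 CPM. Each gene has its own panel primers, so sums over different lists are not comparable in level. Markers of other cells that could carry PDGF transcripts summed to 8.12 to 84.0 CPM over 7 T and NK cell genes and 0.794 to 2.48 over the 2 endothelial genes that the matrices list of 4. The 4 listed B cell and plasma cell genes summed to 1758 and 563 CPM in attached and spheroid treatment-naïve cells, against 21.7 to 79.5 in the resistant populations. The treatment-naïve sums were numerically above PDGFB, although their primers differ. Nearly all of it was FCRLA (37567 UMIs in attached treatment-naïve cells). The 5 myeloid genes summed to 711 and 385 CPM in attached and spheroid treatment-naïve cells and 112 to 368 in resistant ones, mostly from CD14. Both sums were highest in the treatment-naïve population of each culture, where PDGFB was lowest, and their part in the results was not tested. Without replicates no test could be run, so each interval below is a 95% interval for counting error only and says nothing of the spread between cultures. Intervals of UMI levels and of their ratios also take each UMI as independent and leave out the spread between cells. A gene was called measured if 1 of the compared populations had 50 UMIs of it or more, and past the size rule if the levels differed 2-fold or more and the higher one rested on 50 UMIs or more.

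The ligand was nearly absent from treatment-naïve cells and present in every resistant population. In attached cells PDGFB summed to 9.52 CPM (8.26 to 10.9, 204 UMIs) in treatment-naïve, 445 CPM (437 to 454) in paclitaxel-resistant and 135 CPM (131 to 139) in doxorubicin-resistant cells. In spheroids it summed to 7.07 CPM (5.61 to 8.81, 80 UMIs), 117 CPM (110 to 125) and 53.1 CPM (48.8 to 57.7) in the same order. All 4 resistant populations thus stood above both treatment-naïve ones, the 2 paclitaxel-resistant populations stood above the doxorubicin-resistant one of their own culture, and the intervals of the 2 treatment-naïve populations overlapped. The fold over treatment-naïve cells was 46.8 (40.7 to 54.0) for paclitaxel resistance and 14.2 (12.3 to 16.4) for doxorubicin resistance in attached cells, and 16.5 (13.2 to 21.0) and 7.51 (5.93 to 9.61) in spheroids. The paclitaxel-resistant fold was the highest of all measured genes in both cultures, 262 in attached cells and 252 in spheroids, and the doxorubicin-resistant fold ranked 12 of 268 and 13 of 260. Between cultures PDGFB was 3.81-fold (3.56 to 4.07) lower in paclitaxel-resistant and 2.54-fold (2.32 to 2.78) lower in doxorubicin-resistant spheroids than in the attached cells of the same name, and 1.35-fold (1.03 to 1.77) lower in treatment-naïve spheroids, a direction that turned when each cell was given equal weight (1.20-fold higher). That treatment-naïve log2 difference, -0.43, was near the -0.33 of the median measured gene, and PDGFB ranked 141 of 264 from the highest. In treatment-naïve spheroids 89 cells (2.04%) with more than 5 UMIs of ABCB1, which encodes the drug efflux pump P-glycoprotein, held 12 of the 80 PDGFB UMIs, 32.7 CPM (16.9 to 57.2) against 6.22 CPM (4.83 to 7.88) in the other cells. How many cells held those 12 UMIs was not counted, and 1 cell of that population alone held 8 PDGFB UMIs. In attached treatment-naïve cells the 34 such cells held 1 PDGFB UMI. In resistant cells the order was the other way, with 411 against 533 and 128 against 150 CPM in attached paclitaxel- and doxorubicin-resistant cells. In the spheroids it was 106 against 130 and 50.3 against 57.2 CPM, the last 2 with intervals that overlap. Cells were split by ABCB1 at their own depth, and those with more than 5 UMIs were deeper in every population. Their median depth was 3966 against 3121.5 and 4039 against 3417 UMIs in attached paclitaxel- and doxorubicin-resistant cells. In the spheroids it was 4141 against 575 and 4017.5 against 1057. In treatment-naïve cells it was 4864 against 3707 attached and 3006 against 1476 in spheroids. ABCB1 level and depth cannot be told apart in this split.

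**Figure D1:**
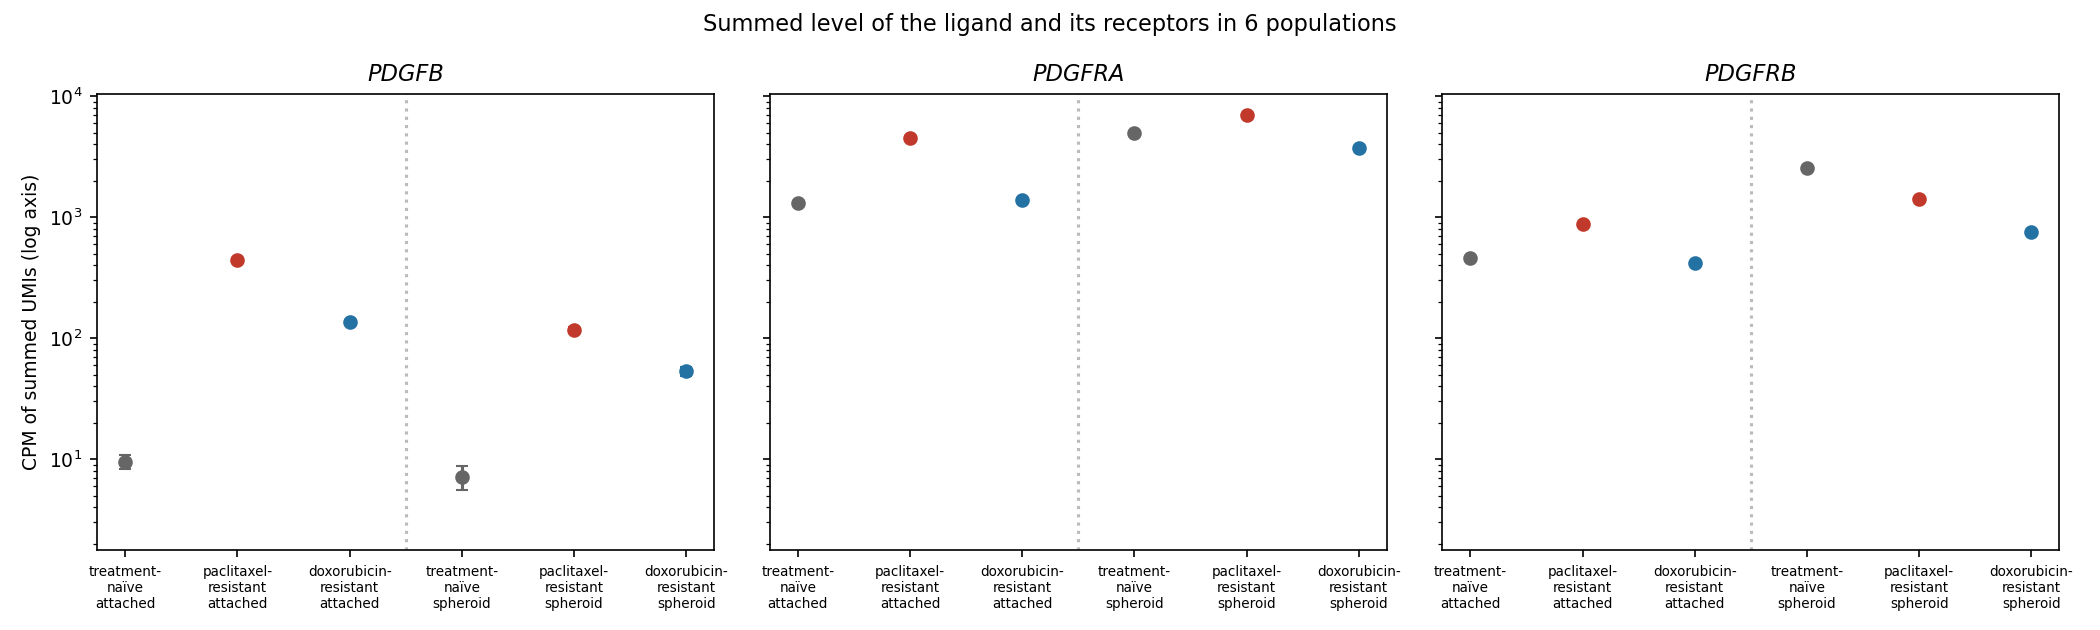
Summed level (CPM, log axis) of PDGFB, PDGFRA and PDGFRB in the 6 populations, 1 point each, with 95% Poisson intervals for counting error (often smaller than the point); the dotted line separates attached from spheroid. PDGFB is at 9.52 and 7.07 CPM in the treatment-naïve populations and between 53.1 and 445 CPM in the resistant ones, while levels of different genes are not comparable because each has its own panel primers.

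PDGFB was detected in a minority of cells in every population but the attached paclitaxel-resistant one. At the cells' own depth at least 1 PDGFB UMI was found in 3.36% of treatment-naïve, 54.1% of paclitaxel-resistant and 26.2% of doxorubicin-resistant attached cells, and in 1.24%, 12.0% and 8.29% of the corresponding spheroid cells. Because spheroid cells were shallower, each cell of at least 1000 UMIs was also thinned at random to 1000 UMIs, which left out at most 1 attached cell per population but kept only 56.0%, 57.7% and 67.7% of the spheroid cells. After thinning the shares were 0.980% (0.733 to 1.28), 29.0% (27.9 to 30.2) and 11.1% (10.4 to 11.8) in attached cells and 0.860% (0.533 to 1.31), 9.24% (8.05 to 10.5) and 4.69% (3.90 to 5.58) in spheroids. The order of the populations was the same on both scales. No cell type in the pool should lack PDGFB by definition, so what free RNA and mistaken tags could add was not measured. Each resistant share was above the treatment-naïve share of the same cartridge, which can also hold the cells' own PDGFB. The part of free RNA and mistaken tags in any of these shares was not tested.

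Cells with PDGFB also held few molecules of it, counted here at the cells' own depth. Spheroid cells were shallower, so these counts are not comparable between the 2 cultures. The mean over PDGFB-detecting cells was 1.15 UMIs in treatment-naïve, 3.27 in paclitaxel-resistant and 2.16 in doxorubicin-resistant attached cells, and 1.48, 2.20 and 1.79 in spheroids. The highest single cell had 34 UMIs, in the attached paclitaxel-resistant population, against 3 in attached and 8 in spheroid treatment-naïve cells. More than 5 UMIs were seen in 8.73% of attached paclitaxel-resistant and 1.54% of attached doxorubicin-resistant cells, in 0.826% and 0.318% of their spheroid counterparts, and in 0 of 5305 attached treatment-naïve cells, which allows a share of up to 0.0695% by the exact binomial interval.

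**Figure D2:**
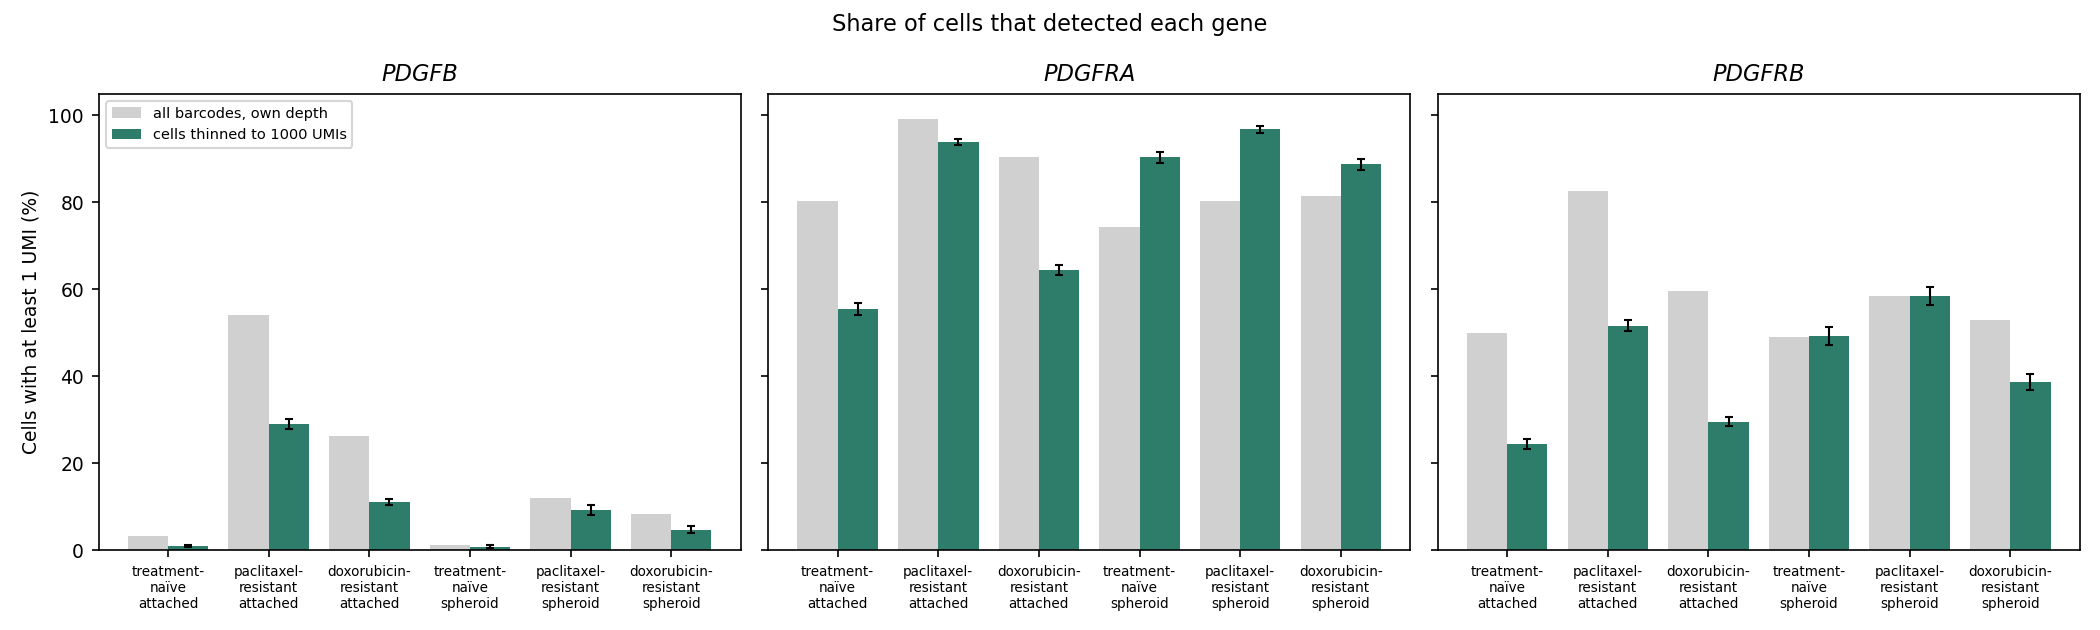
Share of cells (percent) with at least 1 UMI of each gene in the 6 populations, for all barcodes at their own depth (grey) and for cells thinned to 1000 UMIs (green, with exact binomial 95% intervals). PDGFB reaches 54.1% before and 29.0% after thinning in attached paclitaxel-resistant cells, whereas PDGFRA is found in 55.5% to 96.8% of thinned cells everywhere.

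The alpha receptor was widespread in every population. PDGFRA summed to 1311 CPM (1296 to 1326) in treatment-naïve, 4475 CPM (4448 to 4502) in paclitaxel-resistant and 1390 CPM (1376 to 1403) in doxorubicin-resistant attached cells. In spheroids it summed to 4990 CPM (4949 to 5031), 7028 CPM (6972 to 7085) and 3724 CPM (3687 to 3761). It was highest in the paclitaxel-resistant population of each culture, and each spheroid population stood above the attached population of the same treatment in CPM, although the sums not scaled for cells and depth were lower in paclitaxel-resistant (0.567 times) and doxorubicin-resistant (0.959 times) spheroids. The median measured gene was at a log2 CPM difference of -0.33, -0.41 and -0.34 in spheroids over attached cells for the treatment-naïve, the paclitaxel- and the doxorubicin-resistant populations, and the receptor differences below stand against that shift. Against treatment-naïve cells the attached paclitaxel-resistant fold was 3.41 (3.37 to 3.46), past the size rule, and the doxorubicin-resistant fold was 1.06 (1.04 to 1.08), which turned to 0.987 with median-of-ratios scaling. In spheroids the folds were 1.41 (1.39 to 1.42) and 0.746 (0.737 to 0.756), neither past the rule. Treatment-naïve spheroids were 3.81-fold (3.75 to 3.86) and doxorubicin-resistant spheroids 2.68-fold (2.64 to 2.72) above their attached counterparts, and paclitaxel-resistant spheroids 1.57-fold (1.55 to 1.59). In thinned cells at least 1 PDGFRA UMI was found in 55.5% (54.2 to 56.9) of treatment-naïve, 93.9% (93.2 to 94.5) of paclitaxel-resistant and 64.4% (63.3 to 65.5) of doxorubicin-resistant attached cells, and in 90.4% (89.1 to 91.5), 96.8% (95.9 to 97.5) and 88.8% (87.5 to 90.0) of spheroid cells.

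The beta receptor was highest in treatment-naïve spheroids. PDGFRB summed to 463 CPM (454 to 472), 884 CPM (872 to 896) and 420 CPM (412 to 427) in treatment-naïve, paclitaxel-resistant and doxorubicin-resistant attached cells. In spheroids it summed to 2536 CPM (2507 to 2566), 1410 CPM (1385 to 1436) and 761 CPM (744 to 778). The lowest population was doxorubicin-resistant attached cells, and the intervals of no 2 populations overlapped. Against treatment-naïve cells the folds were 1.91 (1.86 to 1.96) for paclitaxel and 0.907 (0.883 to 0.931) for doxorubicin resistance in attached cells, and 0.556 (0.544 to 0.568) and 0.300 (0.293 to 0.308) in spheroids. The last alone was past the size rule, a 3.33-fold (3.25 to 3.42) lower level. The paclitaxel-resistant direction was opposite in the 2 cultures, and the attached doxorubicin-resistant value turned to 1.25 in unscaled sums. Between cultures PDGFRB was 5.48-fold (5.35 to 5.61) higher in treatment-naïve spheroids, and 1.60-fold (1.56 to 1.63) and 1.81-fold (1.76 to 1.86) higher in paclitaxel-resistant and doxorubicin-resistant spheroids, the last 2 turning to 0.576 and 0.649 in unscaled sums. Doxorubicin-resistant cells were lower than paclitaxel-resistant cells for all 3 genes in both cultures, by 3.30-fold (3.18 to 3.42) for PDGFB, 3.22-fold (3.18 to 3.26) for PDGFRA and 2.11-fold (2.06 to 2.15) for PDGFRB in attached cells, and by 2.20-fold (1.98 to 2.45), 1.89-fold (1.86 to 1.91) and 1.85-fold (1.80 to 1.91) in spheroids.

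PDGFRB in treatment-naïve spheroids was carried by few cells. Among cells thinned to 1000 UMIs, those with 10 or more PDGFRB UMIs were 264 of 2442 treatment-naïve spheroid cells (10.8%, 9.61 to 12.1) and held 64.4% of the population's PDGFRB molecules. The same class made up 2.73% (2.08 to 3.50) of paclitaxel-resistant and 0.977% (0.633 to 1.44) of doxorubicin-resistant spheroid cells, with 23.8% and 16.9% of the molecules. In attached cells it was 36 treatment-naïve cells (0.679%, 0.476 to 0.938) with 20.2% of the molecules, 1 paclitaxel-resistant cell and no doxorubicin-resistant cell. Without these cells, a choice made after the data were seen, the mean was 1.25 PDGFRB UMIs per 1000 in treatment-naïve against 1.31 in paclitaxel-resistant spheroids, where with them it was 3.13 against 1.68. Leaving them out lowers a mean by construction, and most where they are many. The paclitaxel-resistant fold in spheroids then became 1.05 and the doxorubicin-resistant fold 0.533, and the attached folds 2.20 and 1.06. The share of thinned cells with at least 1 PDGFRB UMI went the same way, since it was higher in paclitaxel-resistant (58.4%, 56.3 to 60.5) than in treatment-naïve spheroids (49.3%, 47.3 to 51.3) although the summed level was lower. In doxorubicin-resistant spheroids it was 38.7% (36.8 to 40.6), and in attached cells 24.4% (23.2 to 25.5), 51.6% (50.4 to 52.9) and 29.6% (28.5 to 30.7). Asking for 2 PDGFRB UMIs, the paclitaxel-resistant spheroid share was no longer above the treatment-naïve one, as given in the last section.

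**Figure D3:**
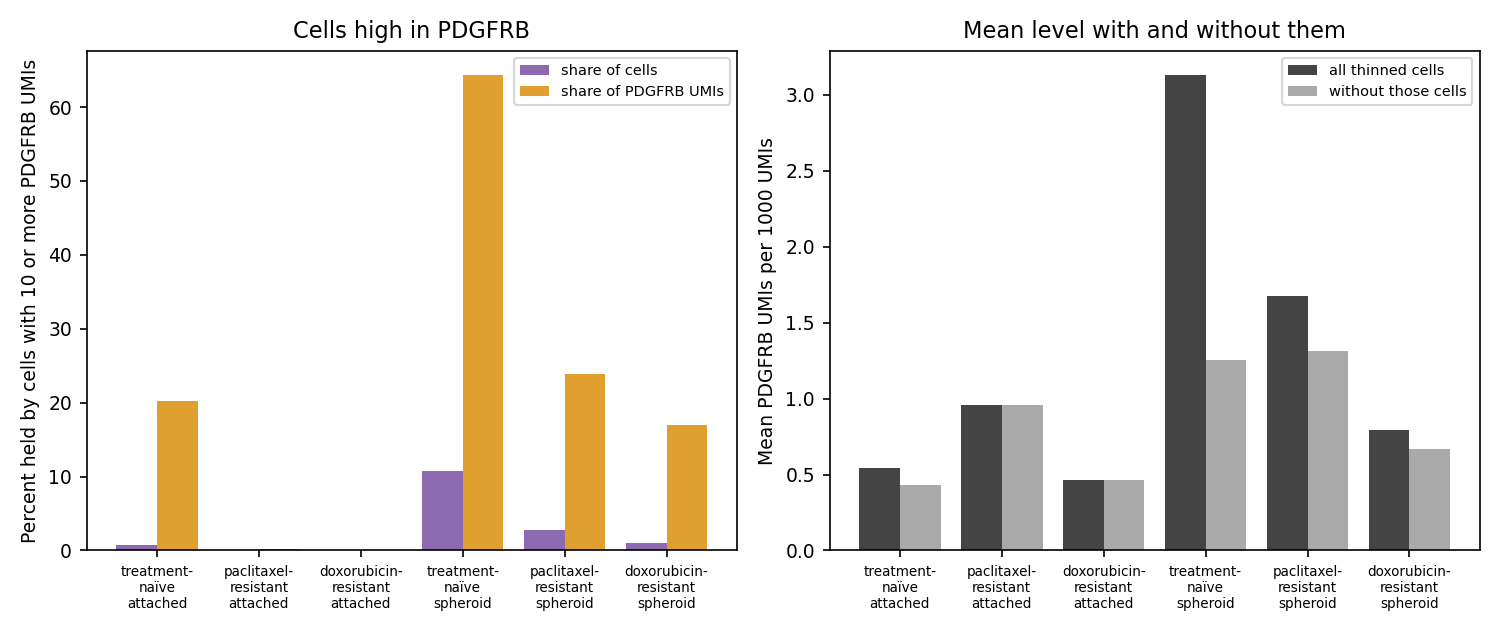
Left, percent of thinned cells with 10 or more PDGFRB UMIs (purple) and percent of PDGFRB UMIs they hold (orange); right, mean PDGFRB UMIs per 1000 UMIs in all thinned cells (dark) and without those cells (light). In treatment-naïve spheroids 10.8% of cells hold 64.4% of the molecules, and without them the mean falls from 3.13 to 1.25.

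The cells high in PDGFRB also held more of 3 matrix genes, chosen after their values were seen. In treatment-naïve spheroids they held a mean of 44.6 UMIs of COL3A1 (collagen III) against 16.7 in the other cells, 14.6 against 4.03 of COL1A1 (collagen I) and 12.1 against 3.25 of DCN, which encodes the proteoglycan decorin. TP73, a transcription factor of the basal epithelial list, was at 0.0227 against 0.203 UMIs, but at 0.0508 against 0.0385 in paclitaxel-resistant spheroids. The 36 attached treatment-naïve cells showed the same order, with 33.4 against 2.04 for COL3A1, 13.3 against 2.81 for COL1A1 and 3.56 against 0.232 for DCN. Over the simple split of cells with and without a PDGFRB UMI, 4 of 186 compared genes (2.15%) were at least 1.5-fold higher in the detecting cells of all 6 populations and none was lower in all 6. They were DCN (1.71- to 6.45-fold), COL3A1 (1.66- to 6.87-fold), COL1A1 (1.59- to 3.82-fold) and the adhesion molecule VCAM1 (1.53- to 7.29-fold). Summed over the 12 mesenchymal genes the detecting cells held 1.09 to 1.36 times as many UMIs as the other cells. These cells were split on PDGFRB itself, and the values describe them without a test. For PDGFRA the same split gave PDGFRB alone as higher in all 6 populations (1.73- to 3.16-fold, 1 of 186 genes or 0.538%) and the chemokine CCL5 alone as lower (0.188 to 0.599 times, again 0.538%).

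The balance of the receptors shifted with the populations. The ratio of PDGFRA to PDGFRB molecules was 2.83 (2.77 to 2.90) in treatment-naïve, 5.06 (4.99 to 5.14) in paclitaxel-resistant and 3.31 (3.24 to 3.38) in doxorubicin-resistant attached cells, and 1.97 (1.94 to 2.00), 4.98 (4.89 to 5.08) and 4.89 (4.78 to 5.01) in spheroids. It is a ratio of molecules amplified with different primers, so only its change between populations can be read. Among thinned cells with either receptor, those with more PDGFRB than PDGFRA were 19.5%, 5.53% and 16.0% in attached cells and 21.3%, 4.50% and 6.75% in spheroids. Both receptors were found in the same attached cell more often than the product of their shares gives, 1.13 times (1.06 to 1.20) in treatment-naïve, 1.03 times (1.002 to 1.05) in paclitaxel-resistant and 1.14 times (1.09 to 1.19) in doxorubicin-resistant cells. In spheroids the observed count was 1.02 to 1.05 times the expected one, with intervals that include 1. There PDGFRA was in 88.8% to 96.8% of cells, so the ratio could not rise far above 1. PDGFRB was nonetheless found more often in cells with than without PDGFRA in each spheroid population, with intervals that do not overlap. The shares were 50.9% (48.8 to 53.0) against 33.6% (27.6 to 40.0) in treatment-naïve spheroids. They were 59.5% (57.3 to 61.6) against 27.1% (17.2 to 39.1) in paclitaxel-resistant and 40.4% (38.4 to 42.5) against 24.5% (19.6 to 29.9) in doxorubicin-resistant spheroids.

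Ligand and receptor transcripts were in the same cells of every resistant population. Of thinned cells with PDGFB, either receptor was detected in 97.4% (96.6 to 98.1) of 1710 paclitaxel-resistant and 75.1% (71.9 to 78.1) of 780 doxorubicin-resistant attached cells, and in 98.0% (95.0 to 99.5) of 200 and 93.3% (87.3 to 97.1) of 120 spheroid cells. The cells without PDGFB had a receptor nearly as often, in 95.0%, 71.9%, 97.6% and 91.5% in the same order. In treatment-naïve cells the shares were 69.2% of 52 against 64.6% in attached cells and 90.5% of 21 against 93.6% in spheroids, with intervals that overlap. PDGFB without any receptor UMI was seen in 44 cells in attached paclitaxel-resistant, 194 in attached doxorubicin-resistant, 4 in spheroid paclitaxel-resistant and 8 in spheroid doxorubicin-resistant cells, and a receptor UMI missed at 1000 UMIs per cell does not show that the receptor is absent. All 3 transcripts were found together in 15.9% of attached paclitaxel-resistant cells, 3.17% of attached doxorubicin-resistant cells, 4.81% and 1.72% of the corresponding spheroid cells and 0.226% and 0.410% of treatment-naïve attached and spheroid cells.

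**Figure D4:**
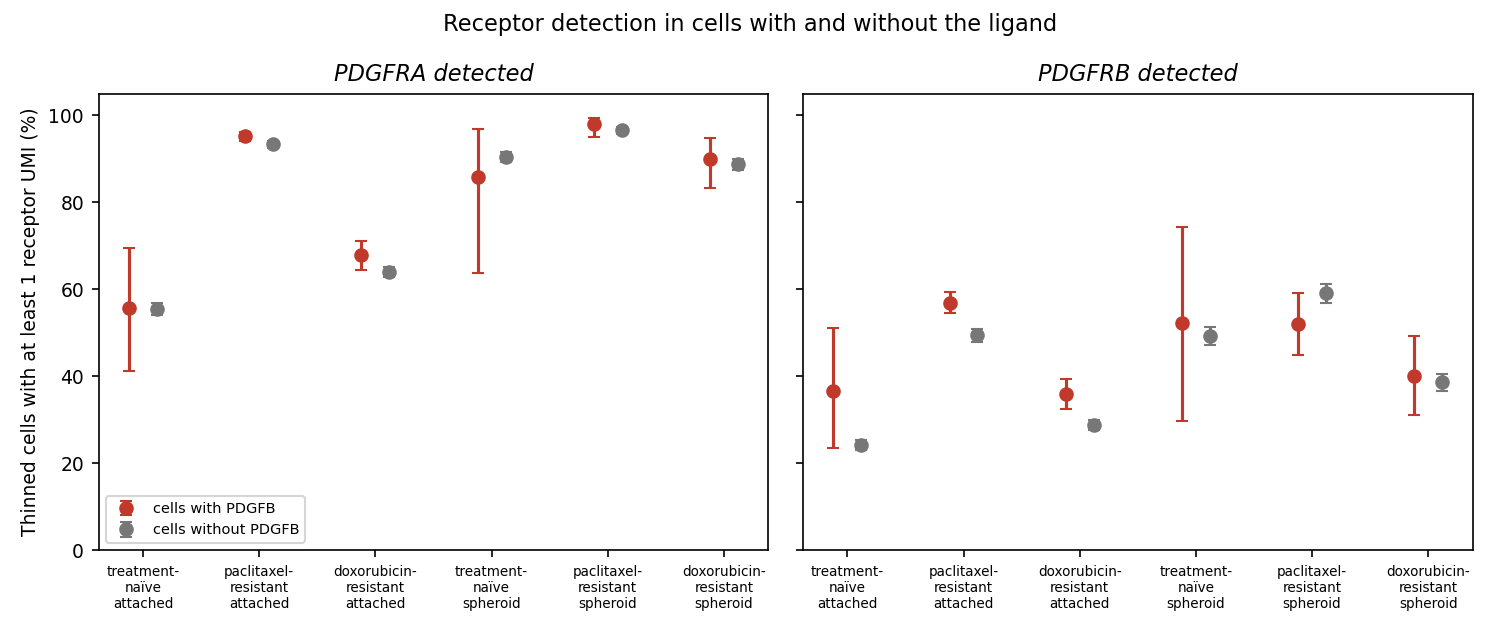
Percent of thinned cells with at least 1 PDGFRA (left) or PDGFRB (right) UMI among cells with PDGFB (red) and without it (grey), with exact binomial 95% intervals, in the 6 populations. PDGFRB was found in 57.0% of cells with and 49.5% of cells without PDGFB in attached paclitaxel-resistant cells, and the treatment-naïve intervals are wide because only 52 and 21 cells hold PDGFB.

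PDGFB was found with each receptor above the product of the shares in both attached resistant populations, with intervals that exclude 1, whereas the spheroid intervals include 1, a difference that was not tested. The excess with PDGFRB was not kept within groups of like mitosis UMIs, described below, where it came to 0.985 and 1.01 times expected. With PDGFRA the excess shrank within the same groups, to 1.004 times in paclitaxel-resistant and 1.006 times in doxorubicin-resistant attached cells. PDGFRB was found in 57.0% (54.6 to 59.3) of PDGFB-positive against 49.5% (47.9 to 51.0) of other paclitaxel-resistant attached cells, and in 35.9% (32.5 to 39.4) against 28.8% (27.7 to 29.9) of doxorubicin-resistant attached cells. The observed count was 1.10 times (1.06 to 1.15) and 1.21 times (1.10 to 1.33) the expected one. In spheroids it was 0.890 times (0.768 to 1.01) for paclitaxel and 1.03 times (0.806 to 1.28) for doxorubicin resistance. In treatment-naïve cells it was 1.5 times (0.970 to 2.10) attached and 1.06 times (0.605 to 1.51) in spheroids. For PDGFRA the observed count was 1.01 times (1.003 to 1.03) the expected one in paclitaxel-resistant and 1.05 times (1.0002 to 1.10) in doxorubicin-resistant attached cells and 0.948 to 1.01 times in the other 4 populations, and in 4 of the 6 its high detection left little room above 1. The mean number of PDGFRB molecules was higher with PDGFB in both attached resistant populations and lower in paclitaxel-resistant spheroids, while the interval in doxorubicin-resistant spheroids reaches 1. PDGFRB was at 1.11 UMIs per 1000 with and 0.896 without PDGFB in attached paclitaxel-resistant cells (ratio 1.23, 1.17 to 1.30) and at 0.585 against 0.446 in doxorubicin-resistant ones (1.31, 1.18 to 1.45), but at 1.21 against 1.73 in paclitaxel-resistant spheroids (0.698, 0.610 to 0.796) and 0.642 against 0.802 in doxorubicin-resistant spheroids (0.800, 0.628 to 1.00). In treatment-naïve cells, with few PDGFB-positive cells, the PDGFRB ratio was 1.21 (0.839 to 1.70) attached and 0.257 (0.149 to 0.411) in spheroids. The 21 spheroid cells with PDGFB held a mean of 0.810 UMIs against 3.15 in the others. PDGFRB was detected in 52.4% (29.8 to 74.3) of them and in 49.2% (47.2 to 51.2) of the others. Over thinned cells the variance of PDGFRB divided by its mean was 12.5 in treatment-naïve and 4.98 in paclitaxel-resistant spheroids. The ratio intervals take each UMI as independent, so they are too narrow there. The PDGFRA ratio in treatment-naïve cells was 0.783 (0.593 to 1.02) attached and 0.940 (0.767 to 1.14) in spheroids. PDGFRA was higher with PDGFB in all 4 resistant populations, with ratios of 1.14 (1.12 to 1.17), 1.06 (1.00 to 1.13), 1.15 (1.09 to 1.20) and 1.13 (1.03 to 1.24), the last of which turned to 0.975 when cells were thinned to 500 UMIs.

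Cells with PDGFB were poorer in mitotic transcripts than the other cells of their resistant population. Of 191 genes compared in the 4 populations with at least 100 PDGFB-positive thinned cells, 14 (7.33%) were at least 1.5-fold lower in all 4 and VCAM1 alone was higher (0.524%, 1.60- to 1.96-fold). The 14 included 8 of the 10 genes of the mitosis list, MKI67 and UBE2C among them, and 5 others (CEP55, KIF2C, NDC80, NUF2, PRC1) with roles in chromosome segregation or cell division. CCL5 was the remaining one. The lowest were KIF2C, a microtubule-depolymerising kinesin (0.286 to 0.462 times the level of the other cells), UBE2C, an enzyme of mitotic exit (0.380 to 0.474), CCL5 (0.232 to 0.535), the proliferation marker MKI67 (0.390 to 0.536) and CEP55, needed for abscission (0.414 to 0.545). The median gene was at 0.986 to 1.07 times. Summed over the mitosis list, PDGFB-positive cells held 27.2 UMIs per 1000 against 52.7 in attached paclitaxel-resistant, 31.7 against 54.5 in attached doxorubicin-resistant, 12.5 against 20.4 in spheroid paclitaxel-resistant and 13.3 against 26.9 in spheroid doxorubicin-resistant cells. Treatment-naïve cells went the same way by less. There 52 attached PDGFB-positive cells held 22.0 against 30.2 (ratio 0.730, 0.689 to 0.774). In spheroids 21 held 11.4 against 13.4 (0.853, 0.748 to 0.968).

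Sorted the other way, PDGFB detection was lower in cells with more mitosis UMIs. Each population was divided into 4 groups of equal size by the summed UMIs of the mitosis list. In attached paclitaxel-resistant cells detection was 40.6% (38.1 to 43.2) in the lowest group, 37.3%, 24.9% and 13.2% (11.5 to 15.0) in the highest, where the mitosis genes took a mean of 122 of the 1000 UMIs. In attached doxorubicin-resistant cells it went from 16.7% (15.0 to 18.6) to 4.84% (3.88 to 5.94), in paclitaxel-resistant spheroids from 12.6% (9.89 to 15.7) to 5.36% (3.62 to 7.61) and in doxorubicin-resistant spheroids from 6.41% (4.64 to 8.59) to 1.56% (0.752 to 2.85). In treatment-naïve cells it stayed at 0.830% to 1.28% in attached cells and 0.818% to 0.984% in spheroids. PDGFRB detection was lower there too, going from 72.2% to 28.6% and from 50.7% to 14.6% in attached paclitaxel- and doxorubicin-resistant cells and from 72.1% to 36.6% and 48.0% to 25.0% in the spheroids, and from 31.3% to 16.4% in treatment-naïve attached cells, whereas treatment-naïve spheroids went from 48.3% to 43.5%. PDGFRA went from 73.8% (71.7 to 75.9) to 57.8% (55.5 to 60.2) in attached doxorubicin-resistant cells, from 96.7% to 89.8% in attached paclitaxel-resistant cells and from 56.4% to 51.4% in attached treatment-naïve cells. In spheroids it was in 87.3% to 97.4% of every group, a range in which a share can show little change. When the expected joint count was taken within these groups, a choice made after the data were seen, PDGFB with PDGFRB came to 0.985 times expected in attached paclitaxel-resistant and 1.01 times in attached doxorubicin-resistant cells, and to 0.835 and 0.942 times in the spheroids. PDGFB with PDGFRA came to 1.004 and 1.006 times expected in attached paclitaxel- and doxorubicin-resistant cells.

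**Figure D5:**
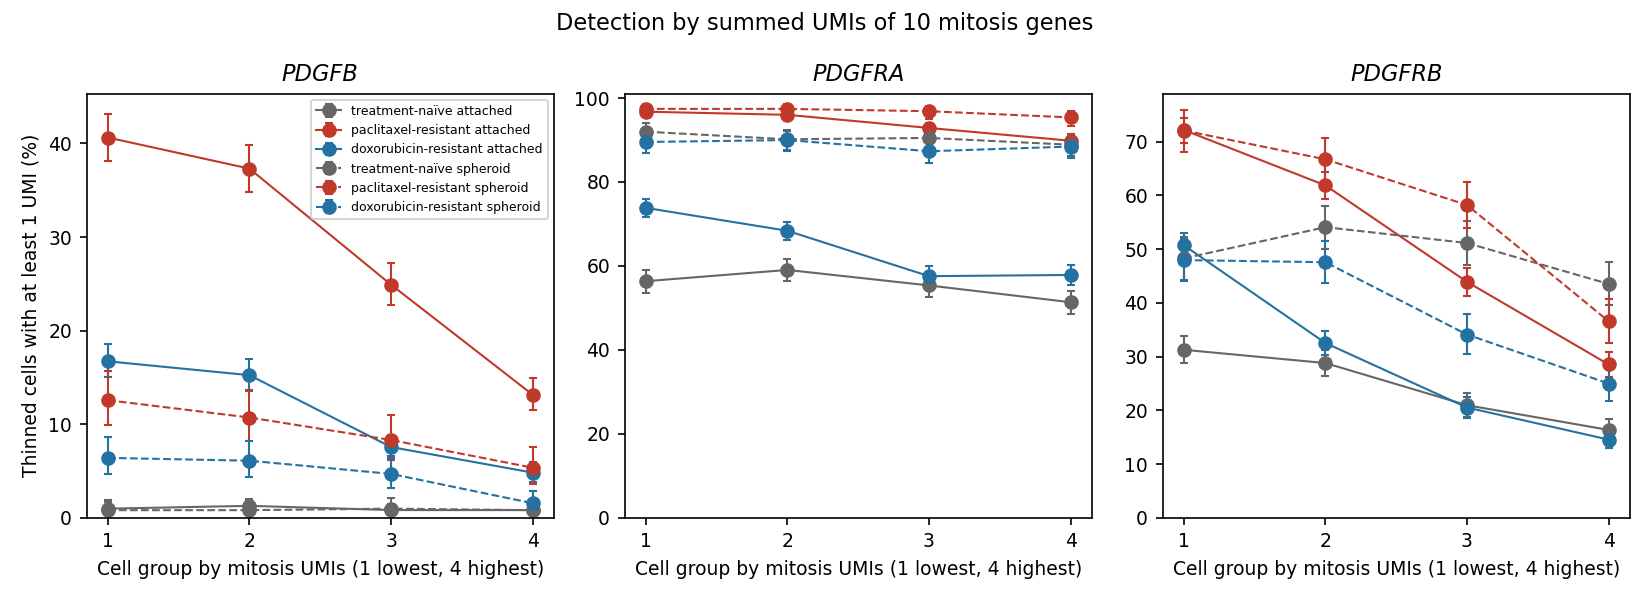
Percent of thinned cells with at least 1 UMI of PDGFB, PDGFRA or PDGFRB in 4 equal groups of each population ordered by summed UMIs of 10 mitosis genes (1 lowest, 4 highest; vertical scales differ), with exact binomial 95% intervals; solid lines are attached and dashed lines spheroid populations. PDGFB goes from 40.6% to 13.2% in attached paclitaxel-resistant cells and stays at 0.818% to 1.28% in treatment-naïve cells.

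PDGFA, the other PDGF gene in the matrices, did not share the large rise of PDGFB over treatment-naïve cells. From the lowest to the highest mitosis group its detection went from 41.1% to 46.5% in treatment-naïve attached cells. It went from 34.9% to 37.9% and from 42.7% to 43.2% in paclitaxel- and doxorubicin-resistant attached cells. In spheroids it went from 15.9% to 18.7%, from 15.7% to 23.3% and from 23.6% to 28.75% in the same order. PDGFA summed to 746 CPM (735 to 758), 492 CPM (483 to 501) and 643 CPM (634 to 652) in treatment-naïve, paclitaxel- and doxorubicin-resistant attached cells and to 257 CPM (248 to 267), 272 CPM (261 to 283) and 349 CPM (338 to 361) in spheroids. Its folds over treatment-naïve cells, 0.660, 0.861, 1.06 and 1.36, all missed the size rule. Like PDGFB it was lower in spheroids than in attached cells. The difference was 2.90-fold (2.79 to 3.02) in treatment-naïve, 1.81-fold (1.73 to 1.89) in paclitaxel-resistant and 1.84-fold (1.78 to 1.91) in doxorubicin-resistant cells. PDGFC and PDGFD were not among the listed symbols.

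Of the 4 PDGF genes measured, 2 were past the size rule as higher in attached paclitaxel-resistant cells (20.2% of all measured genes), and 1 each in attached doxorubicin-resistant (24.3%), spheroid paclitaxel-resistant (9.92%) and spheroid doxorubicin-resistant cells (16.5%), where PDGFRB was lower (17.3%). None was lower in the other 3 comparisons, where 25.2%, 22.8% and 20.2% of genes were. Doxorubicin-resistant against paclitaxel-resistant cells gave all 3 genes of the ligand and its receptors as lower in attached cells (9.96%) and PDGFB alone in spheroids (4.78%), and none as higher (13.8% and 12.7%). Between cultures 2 receptors were higher and PDGFA lower in treatment-naïve spheroids (18.2% and 24.2%), PDGFB alone lower in paclitaxel-resistant spheroids (24.3%, with 14.5% of genes higher), and PDGFRA higher and PDGFB lower in doxorubicin-resistant spheroids (17.9% and 15.7%). With 3 genes these counts are read beside the background and support nothing on their own.

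Of the 14 genes of the RAS, kinase and transcription factor list that the matrices hold, 1 was past the size rule as higher and 2 as lower in attached paclitaxel-resistant cells, beside 20.2% and 25.2% of all measured genes: MAPK3, which encodes the kinase ERK1, was 2.04-fold (1.96 to 2.12) higher, and STAT5A, a transcription factor, and the adaptor GRB7 were at 0.165 (0.147 to 0.184) and 0.244 (0.131 to 0.429) times the treatment-naïve level. In attached doxorubicin-resistant cells the AP-1 component JUN was 2.27-fold (2.24 to 2.30) higher and GRB7 was at 0.388 (0.244 to 0.605) times, beside 24.3% of genes higher and 22.8% lower. In spheroids 13 were measured, of which STAT5A alone passed, lower in paclitaxel-resistant cells at 0.154 (0.115 to 0.202) times, beside 9.92% of genes higher and 20.2% lower there and 16.5% and 17.3% in doxorubicin-resistant spheroids. The list's median log2 fold was -0.10 and 0.24 in attached and -0.32 and 0.14 in spheroid paclitaxel- and doxorubicin-resistant cells, beside -0.02, 0.13, 0.00 and 0.20 over all measured genes. Of the other receptor tyrosine kinases 7, 7, 5 and 6 were measured in the same order. FGFR4, a fibroblast growth factor receptor, was lower in all 4 comparisons (0.0379 to 0.156 times), ERBB3, a neuregulin receptor, was higher in 3 (2.44- to 3.01-fold), and EPHA6 was lower in the 2 attached comparisons. Of 9 other secreted growth factors, 2 were higher and 2 lower in attached paclitaxel-resistant cells, a share close to the 20.2% and 25.2% of all genes, among them CSF1 (2.11-fold, 2.07 to 2.14), the macrophage growth factor, and VEGFA (0.378 times, 0.375 to 0.381), the vascular growth factor. In attached doxorubicin-resistant cells 2 were higher and 3 lower, in paclitaxel-resistant spheroids 1 higher (ANGPT1) and 1 lower (TGFB3), and in doxorubicin-resistant spheroids TGFB3 alone was lower.

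Among the genes whose levels over the 6 populations were most like those of the members, by Pearson correlation of log2(CPM + 1) among 212 genes, were KRT8 (r = 0.96) and CDH6 (0.95) for PDGFB. For PDGFRA the 3 most like were S100A4 (0.96), MAPK3 (0.94) and WISP1 (0.89), and for PDGFRB CXXC5 (0.93), ITGB2 (0.93) and S100A4 (0.91). The 6 points share 2 cartridges, and the values are descriptions with no test.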

How the data were processed

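The authors deposited, for each of the 6 populations, a matrix of counts: molecules (UMIs) of each panel gene in each cell. By the methods of the study, reads went through a cloud pipeline and RSEC-adjusted molecule counts were joined with the putative cells. The submitters' processing notes name hg38. The study then left out genes and cells of low counts with Scanpy, at thresholds not given in the sources used here, which also do not give the handling of barcodes with several tags. The deposited matrices hold the barcodes before that step for the attached cells, so all deposited barcodes were used and no doublet caller was run. The spheroid cells were shallower (medians in the report), which limits detection shares there.

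UMIs were summed per population and scaled to CPM. Fold intervals are exact conditional binomial, CPM intervals exact Poisson and share intervals exact Clopper-Pearson, at 95%, for counting error only. The 2 samples have no replicates, so no test was run. Cells of at least 1000 UMIs were thinned to 1000 without replacement (seed 1) for shares, joint counts and comparisons between cells. The expected joint count is the product of the 2 shares and the number of cells. Genes were compared between cells where at least 100 thinned cells held the member. Named genes were the 3 members, PDGFA, members of 11 gene lists past the size rule (at most 2 highest and 2 lowest), the 3 most like genes per member, up to 5 genes past 1.5-fold in every population compared, and ABCB1; other genes named were chosen after their values were seen. A gene that this rule named for PDGFB is not reported here. Members and lists were chosen with earlier results of these data known. Procedures were tested on simulated data. Positions and promoters come from RefSeq on GRCh38.p14. Python 3.11.15, NumPy 2.4.6, SciPy 1.17.1 and pandas 2.3.3 were used. Alternatives covered scaling, the minimum UMIs of the size rule, barcodes of at least 1000 UMIs, depth of thinning and detection at 2 UMIs. They also covered the deepest 1% of barcodes and treatment-naïve cells high in ABCB1.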

Additional observations from a re-analysis of the deposited data

Results flagged for a closer look

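For PDGFRB, paclitaxel resistance went with a higher level in attached cells (1.91-fold) and a lower one in spheroids (0.556 times), and the attached fold was 3.43 times the spheroid fold. It was picked out because the same contrast pointed in opposite directions in the 2 cultures, with counting intervals that both exclude 1. Without the cells of 10 or more PDGFRB UMIs, which were 10.8% of treatment-naïve spheroid cells, the folds were 2.20 and 1.05 and no longer opposite. These 2 folds are ratios of means over thinned cells. With all thinned cells the paclitaxel-resistant mean was 0.957 against 0.540 in treatment-naïve attached cells, and 1.68 against 3.13 in spheroids. Leaving cells out by PDGFRB itself lowers a mean by construction, so the trimmed folds do not settle the direction. For PDGFRA, doxorubicin resistance gave 1.06 in attached cells and 0.746 in spheroids, a quotient of 1.42, for the same reason. With median-of-ratios scaling the attached fold turned to 0.987, so that both pointed the same way. Neither difference between cultures was tested, since there are no replicates, and culture and cartridge cannot be told apart.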

How the results depend on the processing

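No paired analysis was possible because the 2 samples have no replicates. Of 213 alternative values of folds, 183 kept their direction and their side of the size rule within 1.5 times. In all alternatives PDGFB stayed past the rule as higher in the 4 resistant populations. Of the 183, 27 came from dropping the minimum UMIs of the size rule. Those 27 could not change, since each of the 3 genes had 80 UMIs or more in every population. Another 27 came from keeping barcodes of at least 1000 UMIs, which left out at most 1 attached cell per population. Folds between attached populations could therefore hardly change under that setting. The folds that changed follow, and the cause was not tested.

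For PDGFB, weighting cells equally gave 9.60 and 4.32 for paclitaxel- and doxorubicin-resistant over treatment-naïve spheroids and 1.20 for treatment-naïve spheroids over attached cells. Unscaled sums gave 0.566 for doxorubicin- over paclitaxel-resistant spheroids and 0.392, 0.0949 and 0.141 for spheroids over attached cells (treatment-naïve, paclitaxel- and doxorubicin-resistant). For PDGFRA, median-of-ratios scaling gave 0.987 for attached doxorubicin-resistant over treatment-naïve cells, 0.458 for doxorubicin- over paclitaxel-resistant spheroids and 2.15 for paclitaxel-resistant spheroids over attached cells. Unscaled sums gave 2.01, 0.567 and 0.959 for spheroids over attached cells. For PDGFRB, unscaled sums gave 2.09 and 1.25 for attached paclitaxel- and doxorubicin-resistant over treatment-naïve cells, 0.416 for paclitaxel-resistant over treatment-naïve spheroids, 0.598 for attached doxorubicin- over paclitaxel-resistant cells and 2.89, 0.576 and 0.649 for spheroids over attached cells. Leaving the 5 most abundant genes out of the total gave 2.07 for attached paclitaxel-resistant cells. Median-of-ratios scaling gave 0.466 for doxorubicin- over paclitaxel-resistant spheroids and 2.18 and 2.20 for paclitaxel- and doxorubicin-resistant spheroids over attached cells, the last also 2.20 with equal weight per cell. Without cells of 10 or more PDGFRB UMIs, chosen after seeing the data, the folds over treatment-naïve cells were 2.20 and 1.06 attached and 1.05 and 0.533 in spheroids, and treatment-naïve spheroids were 2.89 times attached cells. Those values are ratios of means over thinned cells, unlike the reported folds of summed UMIs.

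The share of cells with PDGFB, resistant over treatment-naïve, was 29.6, 11.3, 10.7 and 5.46 times in the order attached paclitaxel, attached doxorubicin, spheroid paclitaxel and spheroid doxorubicin. It was 16.1 in attached paclitaxel-resistant cells not thinned. Asking for 2 UMIs it was 82.7, 19.0, 37.2 and 10.5, and at 500 UMIs 27.2 and 13.6 in spheroids. In doxorubicin-resistant spheroids not thinned it was 1.09 for PDGFRA and 1.08 for PDGFRB. Asking for 2 UMIs of PDGFRB it was 0.993 in paclitaxel- and 0.455 in doxorubicin-resistant spheroids.

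PDGFB with PDGFRA, observed over expected, was 1.05 at 500 UMIs, 1.003 not thinned, 1.07 at 2 UMIs and 1.002 within 10 depth groups in attached paclitaxel-resistant cells, and 0.949 at 2 UMIs in attached doxorubicin-resistant cells. Not thinned it was 1.27, 1.21 and 1.18 in treatment-naïve, paclitaxel- and doxorubicin-resistant spheroids, and 1.15 at 2 UMIs in the last. With PDGFRB it was 1.05 not thinned, 1.25 at 2 UMIs, 1.05 within 10 depth groups and 0.985 within groups by mitosis UMIs in attached paclitaxel-resistant cells, and 1.01 within those groups in attached doxorubicin-resistant cells. In spheroids it was 1.36 and 1.29 not thinned and 0.645 and 1.51 at 2 UMIs for paclitaxel and doxorubicin resistance. The depth and mitosis groups were chosen after seeing the data. Receptor UMIs in PDGFB-positive over other cells were 0.764 (PDGFRA) and 0.479 (PDGFRB, 0.257 as reported) in treatment-naïve spheroids at 2000 UMIs, 0.815 (PDGFRB) in paclitaxel-resistant spheroids at 2000, 0.975 (PDGFRA) in doxorubicin-resistant spheroids at 500 and 1.10 (PDGFRB) in attached doxorubicin-resistant cells at 500. With 52 and 21 PDGFB-positive thinned treatment-naïve cells, joint detection there was not resolved at this depth.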
